A study of Mus musculus with 32 samples.

Results

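The 9 genes described here belong to the response to low oxygen: Hif1a and Epas1, which encode the oxygen-regulated transcription factor subunits HIF-1α and HIF-2α, and 7 genes known as their targets outside glycolysis, namely Egln3, Vegfa, Stc1, Adm, Bnip3, Ndrg1 and P4ha1. They were taken by gene symbol from the 53558 genes of the expression files. RNA sequencing was performed on neoplastic cells sorted from mouse lung tumors, 32 libraries in all. Cells carrying CD45, CD31, F4/80 or Ter119 had been excluded by the sort. The libraries allow 3 questions about these genes: whether their levels differ between tumors without and with Lkb1 (gene symbol Stk11), whether they differ after Lkb1 is put back, and whether the answer depends on Trp53 or on the control tumors used.

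All mice carried KrasLSL-G12D and Rosa26LSL-tdTomato, and all tumors were initiated with a lentivirus that delivers Cre to the lung. KT tumors (4 libraries, untreated) carried no further allele and kept wild-type Lkb1. In the other groups both copies of Lkb1 were the Lkb1XTR allele, a gene trap that Cre turns on and that the tamoxifen-dependent recombinase FLPo-ERT2 removes. Restored tumors (7 libraries) had FLPo-ERT2 and received tamoxifen in 4 mg doses for 2 weeks. Non-restored tumors (10 libraries) kept the trap in either of 2 arms, tamoxifen without FLPo-ERT2 (4 libraries, the tamoxifen arm) or corn oil vehicle with FLPo-ERT2 (6 libraries, the vehicle arm). These tumors grew for 24 to 27 weeks. By the study's methods the KT mice received less virus than these Lkb1XTR mice. Virus dose, treatment and Lkb1 therefore cannot be told apart in comparisons with KT. The Trp53-deficient tumors also carried Trp53flox/flox, which Cre deletes, and grew for 16 to 19 weeks. There were 4 restored libraries, and 7 non-restored libraries that came from 4 animals (5 libraries of 2 vehicle animals and 2 libraries of 2 tamoxifen animals), so libraries were summed per animal and 4 animals were set against 4. All restored libraries of both backgrounds were from females, whereas 3 of 10 non-restored and 2 of 4 KT libraries were from males. Of the 7 Trp53-deficient non-restored libraries 3 were from males, and no fit with sex as a covariate was made in that background. The study lists fewer mice than libraries for both Trp53 wild-type Lkb1XTR groups, so p-values may treat tumors of the same mouse as independent.

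HIF-1α and HIF-2α pair with ARNT and bind a short core motif in the promoters and enhancers of their targets. When oxygen is present, prolyl hydroxylases of the EGLN family mark both proteins for destruction by the VHL ubiquitin ligase, so the factors are controlled largely at the protein level and the mRNA of their targets is often read as a sign of their activity. In carcinomas this response is known for promoting vessel growth, survival and a shift in metabolism, and HIF-2α is also expressed in normal alveolar type II cells of the lung, the cell type from which these tumors are thought to arise.

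The promoter windows of Hif1a, Egln3, Vegfa (at the second of its 2 listed starts), Adm, Bnip3 and P4ha1 are shown because they hold the HIF core motif. It was searched as ACGTG or GCGTG on either strand and therefore also as CACGT or CACGC. The stretches run from 20 bases before the first match to 20 bases after the last, or to the last base ahead of the start where that comes sooner (P4ha1), in the direction of the gene, with the matches in capitals (overlapping matches, as in CACGTG, make 1 run). They are from RefSeq, build GRCm38.p6, at chr12:73907712-73907821 (plus strand, Hif1a), chr12:54204079-54204123 (minus, Egln3), chr17:46025350-46025401 (minus, the second of the 2 listed starts of Vegfa), chr7:110627547-110627627 (plus, Adm), chr7:138909517-138909643 (minus, Bnip3) and chr10:59323113-59323295 (plus, P4ha1).
Hif1a: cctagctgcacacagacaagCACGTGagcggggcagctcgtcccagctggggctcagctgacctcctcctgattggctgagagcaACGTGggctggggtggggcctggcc
Egln3: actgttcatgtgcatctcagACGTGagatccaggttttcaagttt
Vegfa: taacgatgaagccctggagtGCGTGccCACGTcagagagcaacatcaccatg
Adm: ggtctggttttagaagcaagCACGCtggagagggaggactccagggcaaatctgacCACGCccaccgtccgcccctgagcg
Bnip3: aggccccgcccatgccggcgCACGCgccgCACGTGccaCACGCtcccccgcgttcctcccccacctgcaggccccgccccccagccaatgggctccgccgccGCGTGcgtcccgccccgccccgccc
P4ha1: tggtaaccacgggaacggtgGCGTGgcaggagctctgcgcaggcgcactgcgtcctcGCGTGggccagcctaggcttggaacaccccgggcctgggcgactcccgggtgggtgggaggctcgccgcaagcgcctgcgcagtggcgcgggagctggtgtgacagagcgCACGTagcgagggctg
The motif was present in 43.8% of all 32851 promoter sequences of this length (250 bases before to 50 after a start), so its presence does not set these genes apart. The Bnip3 stretch held 5 matches, those of Hif1a and P4ha1 3 each, those of Vegfa and Adm 2 each and that of Egln3 1. The window at the first listed start of Vegfa, which covers the 5' end of the gene (chr17:46032328-46032627), held no match. The window at its second start lies inside the gene (chr17:46016993-46032369), so the Vegfa matches are not ahead of its 5' end. The Hif1a window also lies inside the annotated gene (chr12:73901375-73947530). With these counted, all 6 genes with a promoter sequence had a match in at least 1 window. Stc1, Ndrg1 and Epas1 were matched to no promoter sequence.

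Library totals ranged from 1302482 to 5943951 expected counts, so a count of 0 allowed up to 0.385 to 2.5 CPM (3 counts; counting error only). Groups are compared in CPM, which scale each count by the effective (TMM) library size, and genes in TPM, which also take gene length into account. The targeted genes followed the labels: Stk11 had 16.7 to 27.5 CPM in KT, 0 to 1.08 in non-restored and 11.7 to 22.5 in restored libraries, and Trp53 had 1.37 to 4.88 CPM in Trp53-deficient animals against 11.7 to 39.7 in the other libraries. Summed alveolar type II markers (6 of 6 detected) ran from 4493 to 86848 CPM, with the lowest level in non-restored #8. Summed markers of endothelial (7 genes), immune (8 genes) and red blood cells (6 genes) stayed at or below 106, 161 and 4.52 CPM in every library. Fibroblast markers (6 genes) reached 414 CPM in the Trp53 wild-type libraries and 1488 CPM in Trp53-deficient restored animal 1.

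In TPM, Epas1 was the most abundant of the 9 genes in KT tumors (161 ± 26.4, SD, n = 4), followed by Vegfa (91.6 ± 27.5), Hif1a (79.9 ± 12.8), Bnip3 (78.3 ± 19.0), P4ha1 (42.2 ± 6.65) and Ndrg1 (11.5 ± 4.37). The neighbours Vegfa, Hif1a and Bnip3 differed by less than their SD. Egln3 (0.78 ± 0.873 TPM), Stc1 (0.36 ± 0.382 TPM) and Adm (0 in each library) lay at the bottom. In non-restored tumors the order began with Epas1 (146 ± 41.6 TPM, n = 10) and Vegfa (141 ± 47.2 TPM), which did not differ beyond their SD, and Stc1 reached 28.7 ± 27.8 TPM, above Egln3 (0.841 ± 1.25) and Adm (0.468 ± 0.649). Restored tumors had 8.65 ± 1.71 TPM of Stc1 (n = 7). In Trp53-deficient non-restored animals Ndrg1 stood second, at 141 ± 70.5 TPM (n = 4), behind Vegfa at 161 ± 33.9 TPM and within its SD of Vegfa, of Epas1 (105 ± 25.9 TPM) and of Bnip3 (102 ± 23.6 TPM).

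Stc1, which encodes the secreted glycoprotein stanniocalcin-1, was the single gene of the 9 called when non-restored tumors were compared with KT. It was nearly undetected in KT tumors and present in every non-restored library. The 4 KT libraries had 1.38, 0, 2.87 and 0.479 CPM (2, 0, 7 and 1 counts), and their 10 counts together gave 1.39 CPM with an exact Poisson 95% interval of 0.668 to 2.56. The 10 non-restored libraries had a lowest value of 14.1, a median of 52.3 and a highest of 263 CPM, and the 2 groups did not overlap, which held for 3.91% of the genes tested. The fitted difference was 5.88 on the log2 scale (SE 0.907, 58.7-fold, edgeR's quasi-likelihood test, adjusted p = 0.000457). Of the 8 genes that passed the filter on low counts, Stc1 alone was called (1 higher, 0 lower), against 5.86% of all 12636 genes tested. Stc1 was called in all 32 fits that tested it, with log2 differences from 4.28 to 6.92, and the tamoxifen arm alone stood 4.28 above KT (adjusted p = 0.000254).

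**Figure D1:**
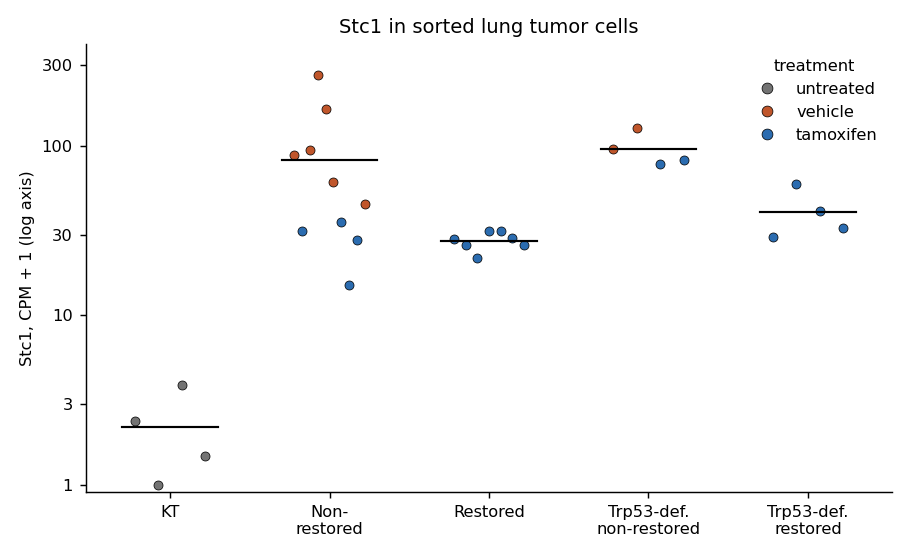
Stc1 in CPM plus 1 on a log axis, for each Trp53 wild-type library and each Trp53-deficient animal, with colors for the treatment and bars at the group means. KT libraries lie below 3 CPM, vehicle-treated non-restored libraries lie between 44.4 and 263 CPM, and the tamoxifen-treated non-restored libraries (14.1 to 34.7 CPM) lie at the level of the restored ones (20.7 to 30.5 CPM).

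The 10 non-restored libraries fell apart by arm for Stc1. The tamoxifen arm had 30.3 (#2), 34.7 (#7), 14.1 (#8) and 27.0 CPM (#9), a mean of 26.5 ± 8.85 (SD, n = 4). The vehicle arm had a lowest value of 44.4 (#10), a median of 90.7 and a highest of 263 CPM (#4), a mean of 119 ± 81.9 (n = 6). The arms did not overlap, which held for 1 of the 9 genes and for 0.778% of the 11561 genes tested between them. The fitted log2 difference was -2.18 (SE 0.516, 4.52-fold lower with tamoxifen, unadjusted p = 0.0016), but over all genes edgeR's adjusted p was 1 after rounding. By edgeR 0% of genes were called between the arms and 378 had an unadjusted p under 0.05, whereas DESeq2 called 11 genes (0.0951%), among them Stc1 (adjusted p = 0.00972). With the arms as 2 of 4 groups of all Trp53 wild-type libraries, a fit added after the data were seen, the log2 difference was -2.16 (SE 0.423) and the adjusted p was 0.336. Tamoxifen was given where FLPo-ERT2 was missing, so the effects of the drug and of the allele cannot be told apart. The arms also differed in sex, with 2 of 4 males in the tamoxifen arm and 1 of 6 in the vehicle arm, and with sex as a covariate the log2 difference was -1.94 (adjusted p = 0.969).

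After restoration Stc1 was uniformly low in the Trp53 wild-type tumors, with a lowest value of 20.7, a median of 27.4 and a highest of 30.5 CPM (26.6 ± 3.43, n = 7). All 7 libraries lay above the KT libraries, a separation found for 2.79% of genes, and the difference from KT was 4.26 on the log2 scale (SE 0.92, 19.1-fold, edgeR, adjusted p = 0.037). Again Stc1 was the single called gene of the 8 tested, where 0.459% of all genes were called. This call was lost when any 1 of the 4 KT libraries (adjusted p from 0.0629 to 0.144) or any 1 of the 7 restored libraries (0.0516 to 0.0667) was left out, and with sex as a covariate (0.108), while the log2 difference stayed between 3.68 and 5.31 in all 30 fits, of which 16 called it. DESeq2 called it too (log2 difference 4.37, adjusted p = 3.54e-06, with 1.33% of genes called).

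Against the whole non-restored group, Stc1 in restored tumors was at 32.5% of the mean (26.6 against 82.0 CPM), and the ranges overlapped. The log2 difference of -1.62 (SE 0.475, unadjusted p = 0.0027) did not pass edgeR's test over all genes (adjusted p = 0.0877). None of the 8 genes tested was called, against 1.87% of all genes. An unadjusted p under 0.05 was found for 2 of the 8, Stc1 and Ndrg1, and for 1913 of all 12636 genes. DESeq2 called Stc1 (adjusted p = 0.0117, with 3.7% of genes called), as did edgeR with sex as a covariate (0.025, with 1.97% called) and without non-restored #8, the library with the least Stc1 (0.0337).

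The value changed with the control arm. With the vehicle arm alone as control, Stc1 in restored tumors was 4.46-fold lower (log2 difference -2.16, SE 0.344, edgeR, adjusted p = 0.00296), 1.6% of genes were called, and the ranges did not overlap, as for 1.38% of genes. With the tamoxifen arm alone, where control and restored mice had both received the drug, the log2 difference was -0.0027 (95% interval -0.6 to 0.59, adjusted p = 0.999), and 0.409% of genes were called. The mean of the tamoxifen arm was 99.6% of that of the restored tumors.

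**Figure D2:**
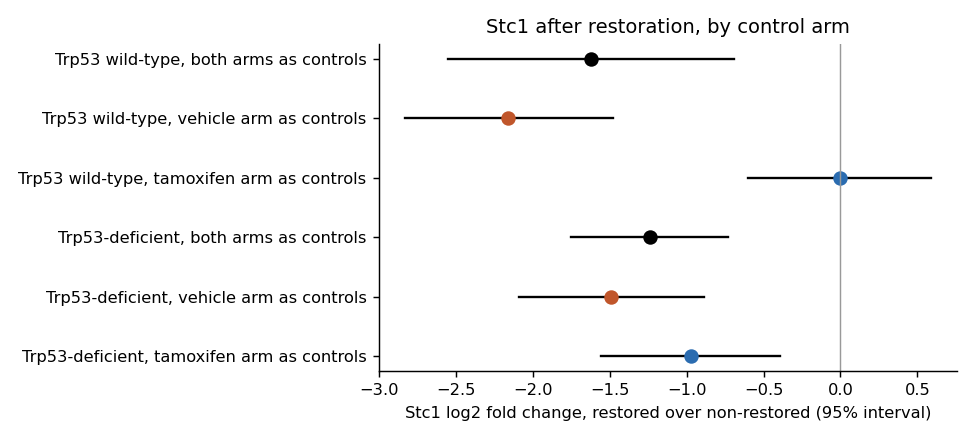
Fitted log2 fold change of Stc1, restored over non-restored, with its 95% interval (normal quantile, narrow for few animals) as a line, in Trp53 wild-type and Trp53-deficient tumors and with both control arms, the vehicle arm or the tamoxifen arm as controls. In Trp53 wild-type tumors the value moves from -2.16 with vehicle controls to -0.0027 with tamoxifen controls, and in Trp53-deficient tumors from -1.49 to -0.97.

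In Trp53-deficient tumors every restored animal had less Stc1 than every control of either kind, without a call by edgeR. The non-restored animals had 94.6 and 127 CPM (vehicle) and 77.1 and 81.3 CPM (tamoxifen), and the restored animals had 28.0, 58.8, 40.4 and 31.7 CPM. The groups of 4 did not overlap, which held for 1 of the 9 genes and for 3.63% of all genes. All restored animals were female and some non-restored ones male, and sex was not fitted in this comparison. The log2 difference was -1.24 (SE 0.261, 2.36-fold, unadjusted p = 0.000811), and edgeR's adjusted p was 0.804 in a comparison in which it called 0% of 12516 genes and 748 had an unadjusted p under 0.05. DESeq2 called 23 genes (0.184%) including Stc1 (adjusted p = 0.015). In fits added after the data were seen, the log2 difference was -0.97 (95% interval -1.56 to -0.39, adjusted p = 0.377) from the 2 tamoxifen animals and -1.49 (-2.09 to -0.89, adjusted p = 1) from the 2 vehicle animals. Whether restoration acted differently by Trp53 status was tested as an interaction, which was 0.36 on the log2 scale (SE 0.731, 95% interval -1.07 to 1.79, edgeR, adjusted p = 1). For the interaction edgeR and DESeq2 called 0% and 0 of 13706 genes, and 422 had an unadjusted p under 0.05 in edgeR. With the arms pooled, the non-restored tumors of both backgrounds had similar Stc1 means, 95.1 ± 22.8 CPM (n = 4) and 82.0 ± 77.7 CPM (n = 10). Their log2 difference was 0.22 (SE 0.489, edgeR, adjusted p = 0.843). There edgeR called 0.584% of genes but 0 of the 8 tested here (DESeq2 also called 0 of them). An unadjusted p under 0.05 was found for 0 of the 8 and for 2430 of all 13706 genes. By arm, the Trp53-deficient and Trp53 wild-type means were 111 and 119 CPM with vehicle. With tamoxifen they were 79.2 CPM (77.1 to 81.3) and 26.5 CPM (14.1 to 34.7). Differences between the backgrounds within an arm were not tested, and the interaction pools the arms. Tumor age differed with Trp53, and age and Trp53 cannot be told apart.

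The HIF subunits themselves gave no call in any comparison. Hif1a had 262, 276, 270 and 193 CPM in KT tumors, 191 to 395 (median 256) in non-restored and 195 to 264 (median 227) in restored tumors. The fitted log2 difference from KT was 0.06 (SE 0.154, adjusted p = 0.874), and that after restoration was -0.21 (SE 0.128, adjusted p = 0.468). Epas1 had 544, 824, 660 and 677 CPM in KT tumors, 194 to 698 (median 577) in non-restored and 489 to 926 (median 750) in restored tumors. Its log2 difference from KT was -0.32 (SE 0.227, adjusted p = 0.445), and that after restoration was 0.34 (SE 0.19, adjusted p = 0.413), with overlapping ranges. In Trp53-deficient animals Epas1 had 403 to 467 CPM in 3 animals and 287 CPM in animal 4 without restoration and 423, 514, 450 and 572 CPM with it (log2 difference 0.29, SE 0.186, edgeR, adjusted p = 0.804). Against the Trp53 wild-type non-restored tumors the Trp53-deficient ones differed by -0.41 (SE 0.231, adjusted p = 0.356). Hif1a there ran from 208 to 287 CPM.

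Non-restored #8 stood apart from its group in several of these genes. It had the highest Hif1a (395 CPM), Ndrg1 (497 CPM), Egln3 (6.16 CPM) and Adm (1.82 CPM) of the 10 non-restored libraries and the lowest Epas1 (194 CPM), P4ha1 (46.5 CPM) and Stc1 (14.1 CPM). The same library had 4493 CPM of summed alveolar type II markers, where the other 9 had 23955 to 54847 CPM, and 221 CPM of alveolar type I markers, where the others had 578 to 1027 CPM. The part of this in the results was not tested beyond leaving the library out.

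Egln3, the hydroxylase of the EGLN family whose own gene is induced by HIF as a feedback, was close to the floor in Trp53 wild-type tumors. KT libraries had 4.13, 0, 1.23 and 0.959 CPM (6, 0, 3 and 2 counts), non-restored libraries 0 to 6.16 (median 0.371, with at most 27 counts) and restored libraries 0 to 6.98 CPM (median 1.3, at most 23 counts). The log2 difference from KT was 0.01 (95% interval -2.46 to 2.48, adjusted p = 0.997), and that after restoration was 0.24 (-1.6 to 2.09, adjusted p = 0.944). Such intervals leave changes of severalfold undetectable at this depth. The Trp53-deficient animals had 6.54 and 5.49 (vehicle) and 0.711 and 1.83 CPM (tamoxifen) without restoration. With restoration they had 8.57, 10.4, 12.6 and 3.57 CPM. With the arms pooled the ranges overlapped, and neither the difference between them (log2 1.22, SE 0.635, edgeR, adjusted p = 0.804) nor that between the non-restored tumors of both backgrounds (1.25, SE 0.95, adjusted p = 0.489) passed the test. Fits by control arm were added after the data were seen. The log2 difference was 2.91 (95% interval 1.44 to 4.37, edgeR, adjusted p = 0.342) from the tamoxifen animals. It was 0.52 (-0.49 to 1.53, not called) from the vehicle animals.

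Vegfa, the principal growth factor for vessels, was abundant and did not differ detectably. KT libraries had 198, 152, 172 and 104 CPM, the non-restored libraries 90.4 to 279 (median 150) and the restored libraries 118 to 225 (median 155). The log2 differences were 0.13 (SE 0.237, adjusted p = 0.8) against KT and -0.07 (SE 0.195, adjusted p = 0.921) after restoration, the latter with a 95% interval of -0.45 to 0.32. In TPM, which take length into account, the means were farther apart, 91.6 ± 27.5 in KT and 141 ± 47.2 in non-restored tumors. Over all 33 fits the log2 difference from KT ran from -0.03 to 0.44, with 0 calls. In Trp53-deficient animals it had 174, 162, 168 and 291 CPM without and 148, 196, 118 and 102 CPM with restoration, a log2 difference of -0.47 (SE 0.252, edgeR, adjusted p = 0.804). Animal 4 of the non-restored group was well above the other 3. Adm, which encodes the vasodilator peptide adrenomedullin, failed the filter on low counts and so has no test here. Where the filter was dropped it was tested and not called in any comparison. It was at 0 in all 4 KT libraries, where a count of 0 allows up to 1.23 to 2.5 CPM, and reached 1.82 CPM in non-restored and 1.24 CPM in restored libraries. The highest value of all was 3.46 CPM (27 counts) in Trp53-deficient non-restored animal 1.

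Bnip3, a mitochondrial protein that promotes the removal of mitochondria by autophagy, had 130, 83.3, 109 and 76.7 CPM in KT tumors, 56.2 to 197 (median 114) in non-restored and 72.3 to 131 (median 103) in restored tumors. The groups overlapped, with a log2 difference of 0.18 from KT (SE 0.29, adjusted p = 0.772) and of -0.23 after restoration (SE 0.238, adjusted p = 0.721). Between the arms of the non-restored group its means were 83.3 ± 30.1 CPM with tamoxifen and 133 ± 50.1 CPM with vehicle, a log2 difference of -0.68 (SE 0.338, unadjusted p = 0.0697, edgeR's adjusted p = 1). Both arms had their lowest value at 56.2 CPM. In Trp53-deficient animals it ran from 91.1 to 162 CPM without and from 44.7 to 167 CPM with restoration.

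Ndrg1, a gene of the N-myc downstream-regulated family that responds to hypoxia and other stresses, varied widely, from 4.15 to 497 CPM, over the Trp53 wild-type tumors. KT libraries had 31.0, 23.3, 20.5 and 19.2 CPM. Of the non-restored libraries 3 were high, #8 with 497, #4 with 364 and #5 with 144 CPM, and the other 7 had 20 to 62.4 CPM. Of the restored libraries 2 were high, #4 with 85.5 and #5 with 87.7 CPM, and the other 5 had 4.15 to 16.9 CPM, below every KT library. The ranges of the non-restored and restored groups therefore overlapped, although their means were 125 ± 168 (n = 10) and 31.7 ± 37.7 CPM (n = 7). The log2 difference of 2.44 from KT (SE 1.06, adjusted p = 0.192) and that of -1.98 after restoration (SE 0.797, adjusted p = 0.235) did not pass edgeR's test. Restored #4 and #5 also had the lowest alveolar type II marker sums (33715 and 40285 CPM, the others 67638 to 86848), low P4ha1 (67.7 and 73.7 CPM) and the highest Stc1 of their group (30.5 and 30.3 CPM). In Trp53-deficient animals Ndrg1 was high throughout, with 236, 106, 368 and 467 CPM without and 72.9, 247, 125 and 158 CPM with restoration. The groups overlapped, with a log2 difference of -0.93 (SE 0.494, adjusted p = 0.804), and the difference from the Trp53 wild-type non-restored tumors was 1.23 (SE 0.809, adjusted p = 0.425).

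P4ha1, the catalytic subunit of a collagen prolyl hydroxylase, had 74.4, 120, 101 and 97.3 CPM in KT tumors, 46.5 to 152 (median 93.2) in non-restored and 67.7 to 149 (median 117) in restored tumors. The log2 difference from KT was 0.05 (SE 0.237, adjusted p = 0.933), and that after restoration was 0.1 (SE 0.194, edgeR, adjusted p = 0.875). Its levels were 55.3 to 127 CPM without and 34.1 to 100 CPM with restoration in Trp53-deficient animals, and the ranges overlapped.

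**Figure D3:**
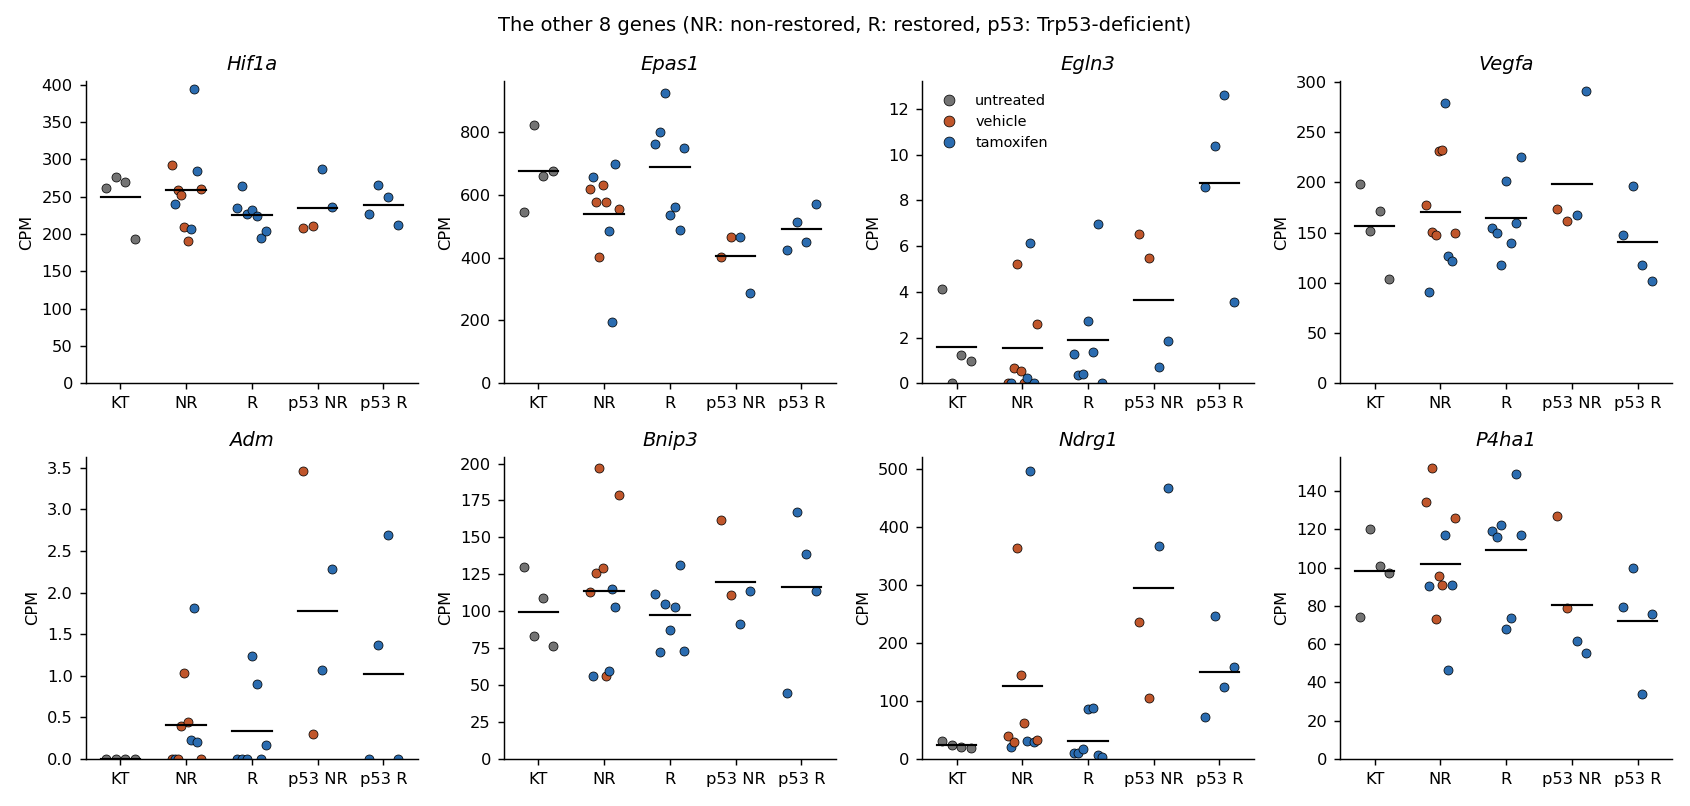
CPM of the other 8 genes on linear axes from 0, for each Trp53 wild-type library and Trp53-deficient animal in the 5 groups, colored by treatment, with bars at the group means. Hif1a, Vegfa, Bnip3 and P4ha1 overlap between all groups. Epas1 runs from 287 to 467 CPM in Trp53-deficient non-restored animals, which overlaps the non-restored libraries (194 to 698) and the Trp53-deficient restored animals (423 to 572). It runs from 544 to 824 CPM in KT and from 489 to 926 CPM in restored libraries. The Trp53-deficient non-restored animals were not tested against KT or against Trp53 wild-type restored libraries, and the share of all genes without overlap there was not determined. Egln3 and Adm stay below 13 and 4 CPM, and Ndrg1 is spread from 4.15 to 497 CPM.

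Without Stc1, the 7 tested genes spanned log2 differences from -0.32 to 2.44 in the comparison of non-restored with KT (lowest adjusted p = 0.192), from -1.98 to 0.34 after restoration (0.235), and from -0.15 to 0.46 for restored against KT (0.8). In Trp53-deficient tumors the range was -0.93 to 1.22 (0.804). The median over the 8 tested genes was 0.094 against KT and -0.138 after restoration, where the medians of all genes tested were 0.03 and -0.011. Against KT 7 of the 8 had a positive sign and 1 was called, where 6707 of all 12636 genes were positive and 5.86% were called. Egln3 (0.01), P4ha1 (0.05) and Hif1a (0.06) lay within their SE. The signs of Hif1a, Vegfa, Bnip3, Egln3 and P4ha1 turned in other fits.

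**Figure D4:**
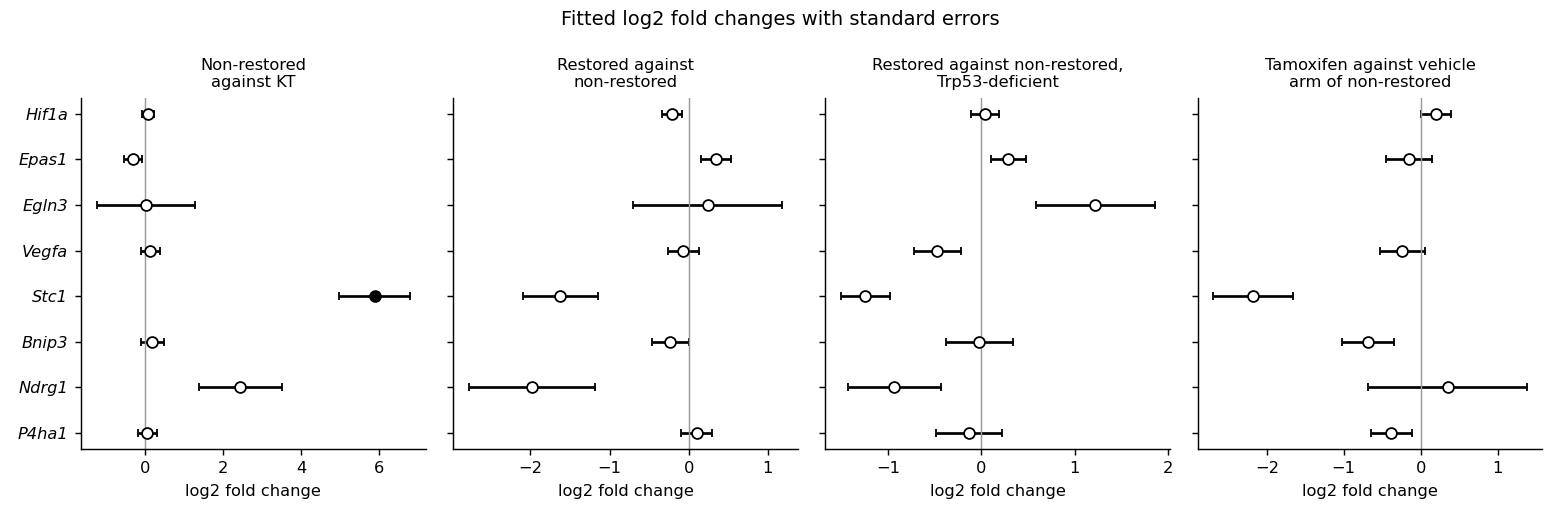
Fitted log2 fold changes of the 8 tested genes (7 between the arms, where Egln3 and Adm were not tested) in 4 comparisons, each with its own axis, with standard errors as bars and a filled point where edgeR's adjusted p is below 0.05. The filled point is Stc1 in non-restored against KT tumors (5.88), and the widest bars belong to Egln3 and Ndrg1.

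Within groups a few pairs of the genes varied together from tumor to tumor. Over the 21 Trp53 wild-type libraries, with group means subtracted from log2 CPM, 2 of 28 pairs passed both Pearson's and Spearman's permutation tests after Benjamini-Hochberg adjustment over the pairs, and 6 passed Pearson's. Epas1 and Egln3 went in opposite directions (r = -0.8, permutation p = 1e-05, the smallest that 100000 permutations can give, adjusted p = 0.00028; rho = -0.78, permutation p = 5e-05, adjusted p = 0.0014), with r = -0.75 without the 2 libraries farthest from the median of Epas1. Bnip3 and Egln3 went together (r = 0.68, permutation p = 0.00074, adjusted p = 0.00691; rho = 0.71, permutation p = 0.00041, adjusted p = 0.00574), with r = 0.65 without the 2 libraries farthest from the median of Bnip3. Both rest on the low counts of Egln3. Within the 10 non-restored libraries 0 of 28 pairs passed, with r = -0.78 (rho = -0.75) for Epas1 and Egln3 and r = 0.69 (rho = 0.77) for Bnip3 and Egln3, and with r = -0.38 and 0.59 once the 2 libraries farthest from the median were left out. Ndrg1 and P4ha1 went in opposite directions by Pearson's test (r = -0.8, permutation p = 2e-05, adjusted p = 0.00028) but not by Spearman's (rho = -0.58, permutation p = 0.00649, adjusted p = 0.0606), with r = -0.7 without 2 libraries. Pearson's test alone was also passed by Epas1 with P4ha1 (r = 0.65, permutation p = 0.00203, adjusted p = 0.0114; rho = 0.33, permutation p = 0.145, adjusted p = 0.453) and by Epas1 with Ndrg1 (r = -0.64, permutation p = 0.00122, adjusted p = 0.00854; rho = -0.37, permutation p = 0.096, adjusted p = 0.384). Egln3 and Ndrg1 had r = 0.56 (permutation p = 0.00885, adjusted p = 0.0413; rho = 0.48, permutation p = 0.028, adjusted p = 0.157), which fell to 0.29 without 2 libraries and so rests on them. Stc1 was closest to Bnip3 (r = 0.47, permutation p = 0.0333, adjusted p = 0.133; rho = 0.49, permutation p = 0.0245, adjusted p = 0.157), which did not pass, and its r with Hif1a was -0.3 (permutation p = 0.183, adjusted p = 0.322; rho = -0.13, permutation p = 0.584, adjusted p = 0.743).

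The genes closest to Stc1 were picked by that closeness, so their high r follows from the choice. Over the same 21 libraries, group differences included, the 5 of 10554 genes most like Stc1 in log2 CPM were Mmp14 (r = 0.89), Gm3608 (r = 0.86), Gpc6 (r = 0.84), Pfkp (r = 0.83) and Rps15a-ps4 (r = 0.83), given as a description since all share the contrast of the trap with KT. Mmp14, a membrane-bound matrix metalloproteinase, had means of 18.5 ± 3.73 CPM in KT, 82.6 ± 36.0 in non-restored and 48.0 ± 18.4 in restored tumors. It also had a higher mean in the vehicle arm (101 CPM) than in the tamoxifen arm (54.5 CPM). Gpc6, a glypican of the cell surface, had means of 18.1 CPM in the tamoxifen and 39.9 CPM in the vehicle arm, and r with Stc1 over the 10 non-restored libraries was 0.9 for Gpc6 and 0.81 for Mmp14. Gm3608 and Rps15a-ps4 are pseudogenes by annotation, so their counts may come in part from near-identical copies, and over the non-restored libraries their r with Stc1 was -0.21 and 0.21. The 10 non-restored libraries were among the 21 used for the choice, whereas the Trp53-deficient animals were not. Over these 8 animals r with Stc1 was 0.29 for Mmp14, -0.46 for Gm3608, 0.4 for Gpc6, 0.46 for Pfkp and -0.12 for Rps15a-ps4. Of the 6 other genes ranked by this measure (Egln3 and Adm lay under the mean of 5 CPM) the one most like Stc1 was Ndrg1 (r = 0.32, rank 1741 of 10554), ahead of Bnip3 (r = 0.25) and Vegfa (r = 0.23), and Epas1 was last (r = -0.2).

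The rest of the pathway gave a few calls. Of 7 HIF partners and oxygen sensors 6 were tested (5 between the arms) and edgeR called 0 in any comparison. Their highest count at an unadjusted p under 0.05 was 3 of 6, between the Trp53 backgrounds, against 2430 of all 13706 genes. There DESeq2 called 3.01% of all genes and 1 of these 6, Egln1 (log2 difference -0.75, SE 0.218, edgeR's adjusted p = 0.0954), a prolyl hydroxylase that marks HIF for destruction. It was named after its value was seen. Of 38 further targets outside glycolysis, 35 were tested in Trp53 wild-type tumors. Angptl4, an inhibitor of lipoprotein lipase, rose in non-restored against KT tumors (log2 difference 2.2, SE 0.617, edgeR, adjusted p = 0.0372) and fell after restoration (-1.92, SE 0.463, adjusted p = 0.0317). Hmox1, heme oxygenase 1, was lower in the non-restored group than in KT (-1.04, SE 0.215, adjusted p = 0.00527), and these were the calls of the list (1 higher and 1 lower against KT, 0 higher and 1 lower after restoration). Of all genes 5.86% and 1.87% were called in these comparisons, so calls for 2 and 1 of 35 genes are near the background. The list's medians were 0.15 and -0.165. Between the arms of the non-restored group Angptl4 had a log2 difference of -0.09 (SE 0.677, adjusted p = 1).

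Of 18 glycolytic targets, all tested, edgeR called 4 higher and 1 lower in non-restored tumors than in KT, where 5.86% of all genes were called. Among them were Pfkp (1.83, SE 0.331, adjusted p = 0.00182), Eno1 (1.37, SE 0.295, 0.00743) and Aldoa (0.9, SE 0.251, 0.0364), with Pfkfb3 as the lower one (-1.7, SE 0.313, 0.00221). By sign alone 14 of the 18 were higher and 4 lower, with a median of 0.607. An unadjusted p under 0.05 was found for 10 of them, against 2626 of all 12636 genes. DESeq2 called 7 of the 18 and 1083 of all genes. After restoration edgeR called Eno1 (-1.33, SE 0.234, adjusted p = 0.00364) and Aldoa (-0.86, SE 0.203, adjusted p = 0.0264) lower, 2 of 18 where 1.87% of all genes were called. By sign 15 of the 18 were lower and 3 higher, with a median of -0.691. An unadjusted p under 0.05 was found for 13 of them, against 1913 of all 12636 genes. DESeq2 called 5 (Aldoa, Eno1, Ldha, Pgk1 and Pkm), where it called 3.7% of all genes. Of 13 VEGF and adrenomedullin ligands and receptors, 9 were tested and Vegfb, a further ligand of the VEGF family, was the 1 edgeR called, lower in the non-restored group than in KT (-0.76, SE 0.226, adjusted p = 0.0472), again against 5.86% of all genes. By sign 7 of the 9 were higher and 2 lower, and 5 had an unadjusted p under 0.05. DESeq2 called 3 of them, Nrp2, Vegfb and Vegfc. The receptor genes of this list are expressed mainly in vessels. After restoration in Trp53-deficient tumors, between the Trp53 backgrounds and between the arms, edgeR called 0 genes of these lists. Of the further targets, 2 of 36, 5 of 36 and 5 of 32 had an unadjusted p under 0.05. Among all genes the counts were 748 of 12516, 2430 of 13706 and 378 of 11561. DESeq2 called 0, 1 and 1 of the further targets, where it called 0.184%, 3.01% and 0.0951% of all genes.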

How the data were processed

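Expression was measured by RNA-seq in 32 libraries. The authors aligned reads to mm10 with STAR 2.6.1d and estimated abundance with RSEM 1.2.30. The expected counts the authors deposited are estimated fragments per gene from RSEM, not normalized, and the deposited TPM were scaled by the authors for gene length and depth. Deposited effective lengths entered only as offsets in an alternative. Tables of the authors' own comparisons (log2 fold changes and p-values) and normalized counts were not used. Whether counting used strand is not given in the sources used here. Genes that overlap members on the other strand averaged at most 13.62 counts.

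Expected counts were rounded, filtered with filterByExpr, scaled by TMM and tested with edgeR 4.0.16 (quasi-likelihood, robust, R 4.3.3), with Benjamini-Hochberg adjustment over all genes tested and a threshold of 0.05. SEs are the log2 fold change over the root of F, and intervals use the normal quantile. With few libraries or animals these intervals are narrower than the test implies. For Bnip3 between the arms the interval was -1.34 to -0.02, although edgeR's unadjusted p was 0.0697. The fits held 21 Trp53 wild-type libraries, 8 Trp53-deficient animals, 25 units (interaction) and 10 non-restored libraries. Correlations used log2 CPM (prior count 2). DESeq2 1.42.0, other filters and scalings, length offsets, sex, control arm, replicate numbers and leaving out each unit (64 refits) were alternatives. The fits were tested on simulated data. Members and lists were chosen with earlier results of these data known. The rule named all 9 members, at most 4 called genes per list and comparison, Stk11 and Trp53, and the 5 genes most like Stc1 with a mean of at least 5 CPM.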

Additional observations from a re-analysis of the deposited data

Results flagged for a closer look

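In 4 of the 44 combinations of gene and group examined a single value lay farther from its neighbours than Dixon's ratio allows at the 95% level, which chance alone gives in about 1 in 20 groups. Hif1a was low in KT #4, at 193 CPM against 262 to 276 CPM in the other 3 libraries, and high in non-restored #8, at 395 CPM against 191 to 292 CPM in the other 9. Vegfa was high in Trp53-deficient non-restored animal 4, at 291 CPM where the other 3 animals had 162 to 174 CPM. Egln3 was high in restored #6, at 6.98 CPM (23 counts), where the other 6 libraries had 0 to 2.73 CPM.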

How the results depend on the processing

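Of 821 refitted fold changes of single genes 770 kept their sign and their side of the threshold, 7 became called, 14 lost a call and 30 changed sign, all of the last uncalled. The fits of the arms within 4 groups and of Trp53-deficient tumors with 1 control arm were chosen after seeing the data. For restored against non-restored tumors, 1 gene (Stc1) in place of 0 was called with DESeq2, with the vehicle arm alone, with sex as a covariate and with the replicate block, and leaving out 1 library gave 0 to 1 (1 without non-restored #8). The replicate block (libraries with the same number in KT, non-restored and restored tumors) gave Stc1 a log2 difference of -1.65 (edgeR, adjusted p = 0.0365) and 270 called genes in place of 236. Same-numbered libraries are not stated to share a mouse, the correlations of their deviations from the group means ran from -0.05 to 0.5 over 15 pairs, and 3 of 15 correlated best with their own number, so they share only a number. The block changed no other call of these genes, and the Trp53-deficient animals and the arms had no such fit because the labels give their libraries no shared numbers.

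For non-restored against KT tumors the number called was 0 in place of 1 with at least 10 counts in every library, a filter that removes Stc1. For restored against KT it was 0 in place of 1 with that filter, with no filter, with females alone and with sex as a covariate, and 0 to 1 when 1 library was left out. DESeq2 called 1 in place of 0 after restoration in Trp53-deficient tumors and between the arms, and the number of correlated pairs was 0 in place of 2 within the 10 non-restored libraries.

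Signs turned as follows, on the log2 scale, and the cause was not tested. After restoration Vegfa was 0.07 and Bnip3 0.20 with the tamoxifen arm alone, and P4ha1 was -0.04 with the vehicle arm alone. Against KT, with the tamoxifen arm alone, Vegfa was -0.01, Bnip3 -0.24 and P4ha1 -0.18, and Hif1a was -0.03 with the vehicle arm alone. With females alone Hif1a was -0.08 and P4ha1 -0.12, with sex as a covariate Vegfa was -0.0011 and Egln3 -0.15, with length offsets P4ha1 was -0.02, and Egln3 was -0.01 with DESeq2 and -0.91 with the replicate block. Leaving out 1 library gave Vegfa -0.16 to 0.05 after restoration. Against KT it gave Hif1a -0.06 to 0.10, Vegfa -0.03 to 0.28, Egln3 -0.35 to 0.91 and P4ha1 -0.05 to 0.16. It gave the interaction of Stc1 -0.05 (without non-restored #4, the library with the most Stc1) to 0.53, and between the arms Epas1 -0.34 to 0.12 and Ndrg1 -2.04 to 1.23, both turned by non-restored #8.

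Over all genes, DESeq2 called 467 in place of 236 after restoration, 168 in place of 58 for restored against KT, 412 in place of 80 between the Trp53 backgrounds, and 23 and 11 in place of 0 after restoration in Trp53-deficient tumors and between the arms. The tamoxifen arm alone gave 50 after restoration and 280 in place of 741 against KT, where females alone gave 132. For restored against KT, females alone gave 10, sex as a covariate 22 and the strictest filter 20. Between 0 and 3 genes were called after restoration in Trp53-deficient tumors in the other fits. Leaving out 1 library or animal gave 145 to 319 after restoration, 340 to 951 for non-restored and 21 to 96 for restored against KT, and 26 to 1448 between the Trp53 backgrounds (1448 without non-restored #8 and 301 without #4).

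Depth limits Egln3 and Adm, with at most 53 and 27 counts in any library or animal. The number of mice behind the libraries limits every p-value given.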
